A study of Mus musculus with 12 samples.

Results

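DNA methylation in the mouse is written by a small set of proteins, and the RNA of 6 of their genes was followed here through cultured and embryonic germ cells: the methyltransferases Dnmt1, Dnmt3a and Dnmt3b, the cofactor Dnmt3l, and Uhrf1 and its paralogue Uhrf2. They were taken by name from the 26218 gene rows of the deposited table, where each has 1 row. The table holds 3′-end RNA sequencing of 12 libraries, 2 in each of 6 groups.

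In 3 groups the cells were primordial germ cell-like cells (PGCLCs), germ cells made in culture from embryonic stem cells by way of an epiblast-like state. They were C57BL/6 cells carrying the BVSC reporters, Blimp1-mVenus and Stella-ECFP, were sorted for mVenus at day 4 of induction, were grown on m220 feeder cells (mainly the mitomycin-resistant clonal subline m220-5) and were sorted again after 3 days (d4c3), 5 days (d4c5) or 7 days (d4c7) of culture. The other 3 groups came from embryos of an ICR and C57BL/6 mix, carried a Stella-EGFP reporter and were sorted by it: primordial germ cells (PGCs) of embryonic day 9.5 (E9.5), germ cells of male embryos at E12.5 and germ cells of female embryos at E12.5. Labels give 10 ng of RNA for each PGCLC library and 1 ng for each embryonic library. Culture and embryo therefore cannot be told apart from strain, reporter, sort and RNA amount in any comparison between them. Whether the 2 libraries of a group had separate cultures or animals as their source is not in the labels, and the p-values therefore cover the spread between these samples alone.

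Dnmt1 copies methylation onto the new strand after DNA replication, and Uhrf1 recruits it by binding hemimethylated CpG sites and ubiquitinating histone H3. Uhrf2 has the same domains but is not known to stand in for Uhrf1 in this task. Dnmt3a and Dnmt3b methylate DNA that carried no mark before, and Dnmt3l, which has no catalytic activity, binds and stimulates them. Primordial germ cells lose most of their DNA methylation while they migrate and settle in the gonad, a loss ascribed largely to failure of maintenance during replication. Dnmt3l is known for its role in male germ cells and growing oocytes, where methylation is set anew.

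Values are RPM, reads scaled so that the genes of a library sum to about 1000000. Estimated from the step between low values, depth ran from 2219175 reads in genes (d4c5 replicate 2) to 5817990 (d4c7 replicate 2). A gene listed at 0 may still have had a level at which up to 3 reads were to be expected, or 0.517 to 1.36 RPM depending on the library. These limits cover counting error only, since amplified reads are not independent molecules. A total of 10856 genes had at least 5 RPM in at least 2 libraries and were tested, and all 6 genes described here were among them, Dnmt3l through its culture libraries alone. Differences are in log2(RPM + 1) ± standard error (SE) from a limma model of all 12 libraries, and a gene was called where its Benjamini-Hochberg adjusted p was under 0.05. All 9 germ cell markers had reads in every library (summed level 2507 to 7599 RPM). The E9.5 libraries also held blood transcripts: the 9 blood markers summed to 4653 and 4122 RPM there and to 48.3 to 169 RPM elsewhere, where most of it was Pecam1, with the embryonic globins Hbb-y, Hbb-bh1 and Hba-x listed at 0 in all culture libraries. Without the fibronectin gene Fn1 the 7 stromal markers summed to 98.5 and 104 RPM at E9.5 and to 1.52 to 4.06 RPM at E12.5, the 8 gonadal somatic markers to at most 22.4 RPM and the 6 hindgut and endoderm markers to at most 38.9 RPM in any library. In these sorted bulk samples, fewer cells with a transcript and less of it per cell cannot be told apart.

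Dnmt3l, the catalytically inactive cofactor, had reads in every cultured library and in none from the embryo, and it rose during culture. Its level was 1.96 and 14.2 RPM in the d4c3 libraries (replicate 1, then replicate 2, here and below), 65.1 and 31.2 RPM in d4c5, and 178 and 41.0 RPM in d4c7. It was listed at 0 in all 6 embryonic libraries. All cultured libraries were thus above all embryonic ones, and within culture both d4c5 and both d4c7 libraries lay above both d4c3 libraries, while d4c5 and d4c7 overlapped. The 2 lowest values rest on an estimated 5 and 32 reads. Dnmt3l (GRCm38.p6 chr10:78042287-78063622, plus strand) overlaps Aire on the other strand at its 5′ end only, and Aire was at 0 to 3.14 RPM.

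From d4c3 to d4c7 Dnmt3l rose by 3.70 ± 0.69 (adjusted p = 0.0129 by limma), against group means of 8.08 ± 8.65 RPM and 110 ± 97.0 RPM (SD, n = 2, as for every group value below). The interval of that log2 difference ran from 2.21 to 5.18 (95%). The SE pools all 6 groups, 3 of which are at 0 throughout, so it understates the spread within culture. In a fit of only the 4 libraries compared the adjusted p was 0.108, without d4c3 replicate 1 it was 0.173, and without d4c7 replicate 1 it was 0.0554. From d4c3 to d4c5 the log2 difference was 2.78 (adjusted p = 0.177) and from d4c5 to d4c7 it was 0.91 (adjusted p = 0.951). Against the embryonic groups neither a fold nor a test is given, since those libraries are at 0 and the gene was tested only because of its level in culture.

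The 2 libraries of each culture group differed in Dnmt3l by more than the root mean square difference over all tested genes, which was 0.42, 0.49 and 0.56 in d4c3, d4c5 and d4c7. On the log2 scale replicate 1 minus replicate 2 was -2.36 in d4c3, 1.04 in d4c5 and 2.09 in d4c7. Of the 9 germ cell markers, 2 were likewise higher in replicate 1 of both d4c5 and d4c7, the RNA-binding protein genes Dazl and Ddx4: Dazl was at 376 and 171 RPM in d4c5 and at 505 and 296 RPM in d4c7. Lower in replicate 1 of both were 5 markers, Dppa3, Pou5f1, Tfap2c, Nanos3 and Kit, and the other 2 were mixed. Stromal markers did not move one way. Fn1, the most abundant of the 8, was lower in replicate 1, at 171 and 397 RPM in d4c5 and 113 and 417 RPM in d4c7. The sum of the 7 remaining markers was higher in replicate 1, at 93.5 and 11.7 RPM in d4c5 and 30.6 and 12.4 RPM in d4c7. It was 13.3 and 13.8 RPM in d4c3. In d4c5 replicate 1 that sum consisted mainly of Col3a1 and Dcn at 39.7 RPM each, and Lum was at 0 in 5 of the 6 culture libraries. Their part in the level of Dnmt3l was not tested.

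Dnmt3b, a de novo methyltransferase, was the other gene that was higher in late culture than in the embryo. Its level was 9.39 and 11.5 RPM in d4c3, 12.1 and 19.9 RPM in d4c5, and 21.2 and 42.9 RPM in d4c7. It was 5.15 and 7.55 RPM at E9.5, 6.56 and 11.1 RPM in E12.5 males, and 7.58 and 7.54 RPM in E12.5 females. Mean levels increased in the order E9.5, E12.5 female, E12.5 male, d4c3, d4c5 and d4c7. Neighbours in that order overlapped up to d4c3, and the values of d4c3, d4c5 and d4c7 did not overlap one another.

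Between d4c7 and d4c3 the log2 difference in Dnmt3b was 1.45 ± 0.37, with an adjusted p of 0.0535 in the limma model, just outside the threshold. With the replicate number as a block within culture and within the embryo, the adjusted p was 0.00951. With 1 of the 4 libraries left out in turn the difference ran from 0.96 to 1.94 and the adjusted p from 0.0197 (without d4c7 replicate 1) to 0.311 (without d4c3 replicate 1), and 1 of these 4 fits gave a call. Against the embryo Dnmt3b was called higher in d4c7, by 2.11 ± 0.37 over E9.5 (adjusted p = 0.000632), 1.70 ± 0.37 over E12.5 males (0.00288) and 1.87 ± 0.37 over E12.5 females (0.00147). These 3 calls held with each library of the groups compared left out in turn. At d4c3 the difference from E9.5 was 0.65 ± 0.37 (adjusted p = 0.227).

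**Figure D1:**
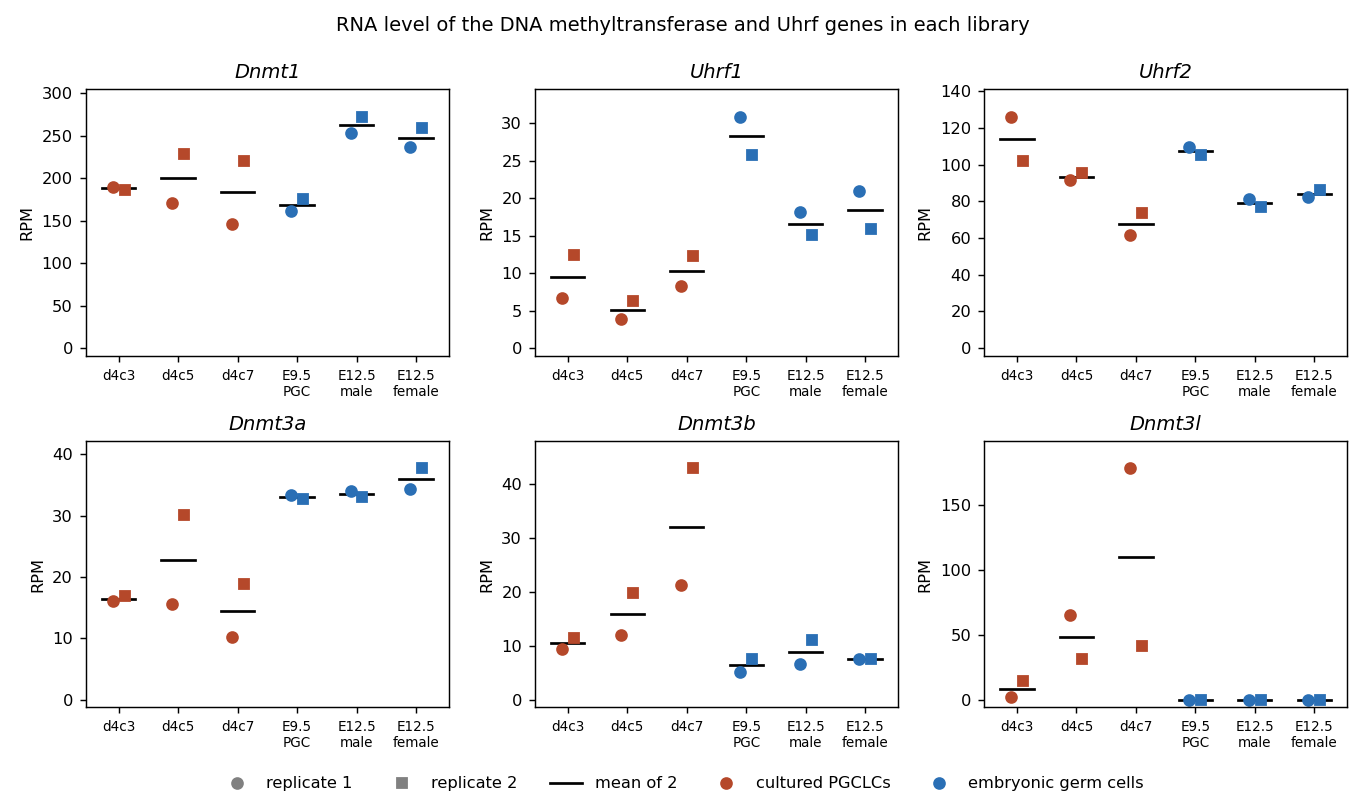
RNA level (RPM, vertical axis from 0) of the 6 genes in each of the 12 libraries, by group (horizontal axis); circles are replicate 1, squares replicate 2, bars the mean of 2, red cultured PGCLCs and blue embryonic germ cells. Dnmt3a and Uhrf1 were lower in all 6 culture libraries than in all 6 embryonic libraries, and Dnmt3l was above 0 in culture only.

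Promoter sequence is shown for the starts of Dnmt3l and Dnmt3b, which were both highest in d4c7, and of Uhrf1, which was lowest in culture, since the share of CpG sites in a promoter sets how much methylation it can carry. All 6 genes were matched in the RefSeq promoter table of build GRCm38.p6, which gives 3 starts for Dnmt1, Dnmt3a and Dnmt3l, 2 for Uhrf1 and 1 for Dnmt3b and Uhrf2. Each stretch below ends upstream of its start, lies on the plus strand, holds no annotated exon of the GENCODE annotation and is written 5′ to 3′ with each CpG in capitals.
Dnmt3l start 2, chr10:78049592-78049841: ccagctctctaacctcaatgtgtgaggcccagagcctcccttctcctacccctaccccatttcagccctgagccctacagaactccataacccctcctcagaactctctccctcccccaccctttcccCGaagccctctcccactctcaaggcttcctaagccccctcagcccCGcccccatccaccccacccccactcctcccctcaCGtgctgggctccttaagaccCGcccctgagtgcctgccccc
Dnmt3l start 3, chr10:78055085-78055334: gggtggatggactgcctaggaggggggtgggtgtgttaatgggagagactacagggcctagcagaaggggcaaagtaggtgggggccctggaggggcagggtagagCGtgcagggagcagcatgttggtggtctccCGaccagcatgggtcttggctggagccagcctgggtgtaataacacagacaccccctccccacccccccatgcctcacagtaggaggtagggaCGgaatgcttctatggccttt
Dnmt3b, chr2:153649199-153649410: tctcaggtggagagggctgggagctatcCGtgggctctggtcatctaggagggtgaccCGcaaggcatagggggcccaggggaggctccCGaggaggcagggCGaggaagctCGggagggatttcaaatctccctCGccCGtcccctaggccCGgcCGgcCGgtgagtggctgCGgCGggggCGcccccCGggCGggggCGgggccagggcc
Uhrf1 start 2, chr17:56304063-56304312: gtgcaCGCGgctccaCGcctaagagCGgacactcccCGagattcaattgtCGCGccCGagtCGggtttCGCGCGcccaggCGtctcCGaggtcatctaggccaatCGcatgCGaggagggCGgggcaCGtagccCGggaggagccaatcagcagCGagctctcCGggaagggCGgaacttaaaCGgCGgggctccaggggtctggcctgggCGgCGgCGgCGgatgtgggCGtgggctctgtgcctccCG

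The CpG content of these starts differed widely. The stretches shown hold 4 and 3 CpG sites for Dnmt3l in 250 bases each, 16 for Dnmt3b in 212 bases and 30 for Uhrf1 in 250 bases. In windows of 300 bases, from 250 before the start to 50 after it, the 3 starts of Dnmt3l held 6, 4 and 3 CpG sites, below the median of 7 over all 32851 windows of the table. The Dnmt3b window held 30, more than 88.3% of windows, and the Uhrf2 window 28. Dnmt3a reached 47, Uhrf1 held 12 and 33, and Dnmt1 held 2, 12 and 33. Methylation was not measured in these libraries.

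**Figure D2:**
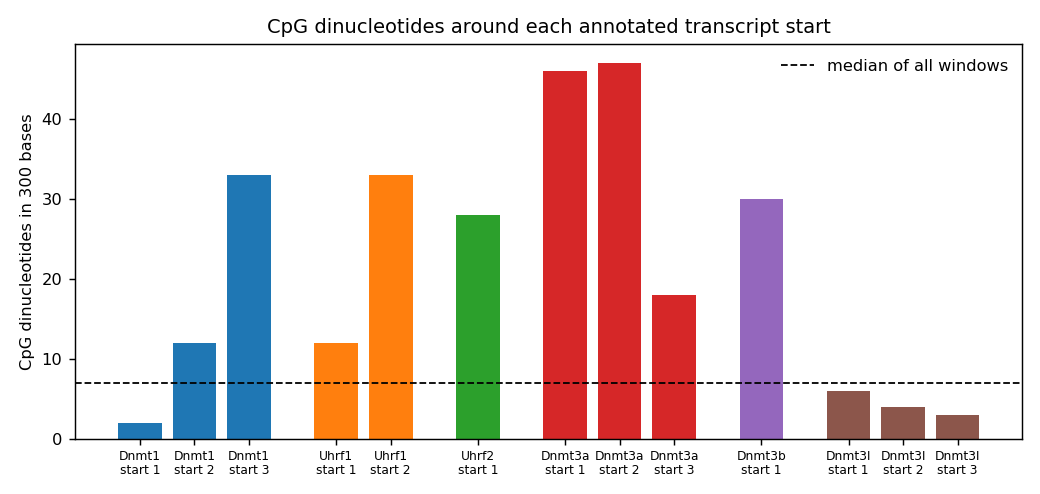
CpG sites (vertical axis, number per window of 300 bases) at each annotated start of the 6 genes, with the median of all windows as a dashed line at 7. Only the 3 Dnmt3l starts and start 1 of Dnmt1 lie below the line.

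A match to the E2F motif, bound by S phase regulators, was sought on both strands as TTTCGCGC or TTTGGCGC, whose matches on opposite strands can overlap. Uhrf1 held TTTCGCGC at start 2, with its first base 185 bases before the start, and Dnmt1 held both forms at start 3. The other 4 genes held neither, and either form was in 0.813% of all windows. The CCAAT box was in windows of the same 2 genes and in 37.4% of all windows. These are matches of letters and not measured sites.

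Uhrf1, the recruiter of Dnmt1, was low in all cultured cells. Its level was 6.65 and 12.4 RPM in d4c3, 3.90 and 6.32 RPM in d4c5, and 8.25 and 12.2 RPM in d4c7. In the embryo it was 30.9 and 25.7 RPM at E9.5, 18.1 and 15.1 RPM in E12.5 males, and 20.9 and 15.8 RPM in E12.5 females. The highest culture library was below the lowest embryonic one, and E9.5 lay above both E12.5 groups. The d4c5 values rest on an estimated 10 and 14 reads, the thinnest count behind any Uhrf1 value.

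Uhrf1 was called lower in d4c3 than at E9.5 (-1.53 ± 0.33, adjusted p = 0.00428 by limma) and lower in d4c7 than at E9.5 (-1.40 ± 0.33, adjusted p = 0.00527). These are 0.347 and 0.379 times the E9.5 level on the RPM + 1 scale. The d4c3 call was lost without d4c3 replicate 1 (adjusted p = 0.0648) or E9.5 replicate 1 (0.0535), and the d4c7 call without E9.5 replicate 1 (0.0551). Against E12.5 the differences of d4c7 were -0.66 (adjusted p = 0.132) for males and -0.80 (0.0724) for females. With the replicate block the female one had an adjusted p of 0.0219, but in the embryo the replicate numbers do not pair the libraries. Within culture Uhrf1 went from a mean of 9.54 ± 4.08 RPM to 5.11 ± 1.72 RPM and 10.2 ± 2.82 RPM, with adjusted p of 0.530 and 0.845 for the steps to d4c5 and d4c7. From E9.5 to E12.5 the differences were -0.74 in males (adjusted p = 0.0966) and -0.60 in females (0.170). Blood transcripts moved with the E9.5 libraries, as given above, and their part in the E9.5 level of Uhrf1 was not tested.

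Dnmt1, the maintenance methyltransferase, was present at over 100 RPM in every library and was highest at E12.5. Its level was 190.1 and 186 RPM in d4c3, 171 and 229 RPM in d4c5, and 146 and 221 RPM in d4c7. It was 161 and 176 RPM at E9.5, 254 and 272 RPM in E12.5 males, and 237 and 258 RPM in E12.5 females. The 4 E12.5 libraries were above the other 8, and among those 8 all neighbouring groups in the order of means overlapped.

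Between E9.5 and E12.5 Dnmt1 rose by 0.64 ± 0.17 in males (adjusted p = 0.00935) and 0.55 ± 0.17 in females (0.0207), or 1.56 and 1.47 times. In d4c7 it was lower than in males (-0.55 ± 0.17, adjusted p = 0.0218) and than in females (-0.46 ± 0.17, adjusted p = 0.0454). Between cultured and E9.5 cells the differences did not pass: 0.16 for d4c3 (interval -0.20 to 0.53, adjusted p = 0.535) and 0.09 for d4c7 (interval -0.27 to 0.46, adjusted p = 0.718). Leaving 1 library out, which leaves 1 in its group, moved the E12.5 differences from E9.5 little (0.58 to 0.70 in males, 0.49 to 0.62 in females). It moved those of d4c7 more (-0.85 to -0.25 against males, -0.76 to -0.16 against females). The male call was lost without E9.5 replicate 1 (adjusted p = 0.0736) or E12.5 male replicate 2 (0.0717), and the female call without any 1 of the 4 libraries (0.0581 to 0.125). The d4c7 calls were lost without d4c7 replicate 1 (0.229 against males and 0.435 against females) or without either E12.5 library of the group compared (0.0692 and 0.124 for males, 0.0997 and 0.204 for females).

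Uhrf2, the Uhrf1 paralogue, declined over culture and was lower at E12.5 than at E9.5. Its level was 126 and 102 RPM in d4c3, 91.6 and 95.3 RPM in d4c5, and 61.6 and 73.4 RPM in d4c7. It was 109.6 and 105 RPM at E9.5, 81.0 and 77.1 RPM in E12.5 males, and 82.2 and 86.0 RPM in E12.5 females. The means descended from d4c3 through E9.5, d4c5, E12.5 female and E12.5 male to d4c7, and of these neighbours only d4c3 and E9.5 overlapped.

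Over culture Uhrf2 fell by 0.74 ± 0.14 between d4c3 and d4c7 (adjusted p = 0.0124), to 0.597 times. That call was lost without d4c3 replicate 1 (adjusted p = 0.161) and in a fit of only the 4 libraries compared (0.178). Uhrf2 was also lower in d4c7 than at E9.5 (-0.66 ± 0.14, adjusted p = 0.00220), and this call held with each of the 4 libraries left out in turn. Males of E12.5 were below E9.5 (-0.44 ± 0.14, adjusted p = 0.0233), a call lost without any 1 of the 4 libraries (0.0682 to 0.131). In females of E12.5 the difference from E9.5 was -0.35 ± 0.14 (adjusted p = 0.0622), with an adjusted p of 0.0323 after the medians of the libraries were set equal. At d4c3, where the Uhrf2 mean was at its highest, Uhrf1 was already below every embryonic library.

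Dnmt3a, the other de novo methyltransferase, was lower in culture than in the embryo. Its level was 16.0 and 16.9 RPM in d4c3, 15.6 and 30.0 RPM in d4c5, and 10.2 and 18.8 RPM in d4c7. It was 33.5 and 32.8 RPM at E9.5, 34.1 and 33.1 RPM in E12.5 males, and 34.3 and 37.7 RPM in E12.5 females. All culture libraries were below all embryonic libraries, and the embryonic values lay close together. The difference of replicate 1 from replicate 2 was -0.90 in d4c5 and -0.82 in d4c7 on the log2 scale.

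Dnmt3a was lower than at E9.5 in d4c3 (-0.97 ± 0.30, adjusted p = 0.0297) and in d4c7 (-1.20 ± 0.30, adjusted p = 0.00705). In d4c7 it was lower than in E12.5 males (-1.22 ± 0.30, adjusted p = 0.00602) and females (-1.31 ± 0.30, adjusted p = 0.00349), which are 0.431 and 0.403 times. The d4c3 call was lost without any 1 of the 4 libraries (adjusted p = 0.0976 to 0.137), and without d4c7 replicate 1 the d4c7 difference was -0.79 against E9.5 (adjusted p = 0.0704) and -0.81 against males (0.0595). No change over culture or between embryonic groups passed, with differences of -0.61 to 0.38. In late culture the pair of de novo methyltransferases stood on opposite sides of the embryo, Dnmt3a below and Dnmt3b above.

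**Figure D3:**
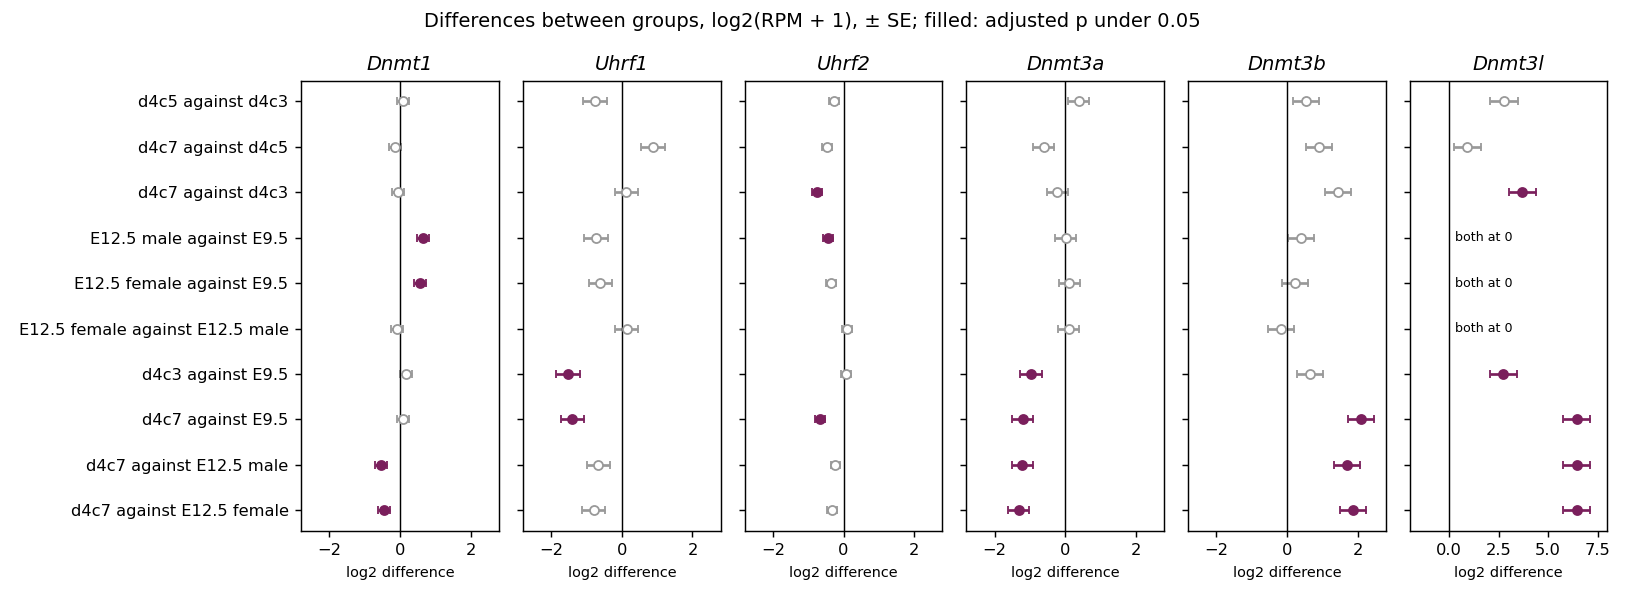
Differences in log2(RPM + 1) between groups (horizontal axis, first group minus second, ± SE) for each gene (panel) and comparison (vertical axis); filled points have a limma adjusted p under 0.05, and the scale of the Dnmt3l panel differs, where the filled points against embryonic groups follow from the filter on low values. In d4c7 against E9.5, Uhrf1, Uhrf2 and Dnmt3a lie left of 0 and Dnmt3b right of it.

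Counted by comparison, the 6 genes were called as follows, beside the share of all tested genes. In d4c5 against d4c3 and in d4c7 against d4c5 limma called 0 of the 6 genes, where the shares of all genes called were 0.0829% and 0.0184% (an unadjusted p was under 0.05 for 2 and 3 of the 6, and for 967 and 610 of all genes). In d4c7 against d4c3 it called 2, Dnmt3l higher and Uhrf2 lower, where 2.75% of all genes were called. With the replicate block Dnmt3b was called as well. In E12.5 males against E9.5 it called 2, Dnmt1 and Uhrf2, where 37.7% of all genes were called, and in females 1, Dnmt1, where 37.5% were called. Between the sexes of E12.5 it called 0, where 11.9% of all genes were called (an unadjusted p was under 0.05 for 0 of the genes described here and for 2819 of all genes). The log2 differences ran from -0.16 for Dnmt3b to 0.13 for Uhrf1, leaving out Dnmt3l. Dnmt3l was at 0 in every embryonic library, so it could not be called in any comparison between embryonic groups.

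Against the embryo, Dnmt3l is left out of the counts, since its passing the filter fixed its difference. Of the other 5 genes, 2 were called in d4c3 against E9.5 (Dnmt3a and Uhrf1, both lower), where 23.7% of all genes were called. In d4c7 it was 4 of 5 against E9.5, all but Dnmt1, where 31.9% of all genes were called. Against E12.5 males and females it was 3 of 5 each (Dnmt3b higher, Dnmt1 and Dnmt3a lower), where 36.6% and 38.9% were called. Comparisons that name the same group share its libraries. Over all 12 libraries, culture and embryo did not overlap for 2 of these 5 genes, Dnmt3a and Uhrf1, where 15.5% of all tested genes did not overlap.

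Within culture, the 2 replicates also differed in step with one another for several of these genes. In d4c5 and d4c7, replicate 1 was below replicate 2 for Dnmt1, Dnmt3a, Dnmt3b, Uhrf1 and Uhrf2 and above it for Dnmt3l. For Dnmt1 these differences were -0.42 and -0.60 on the log2 scale, and for Uhrf2 they were -0.06 and -0.25. In the embryonic groups the largest was -0.68, for Dnmt3b in males. Across all tested genes the replicate differences of d4c5 and d4c7 correlated at r = 0.455, and those of d4c3 with d4c5 and d4c7 at 0.116 and 0.131. These are correlations across 10856 genes, which are not independent replicates. They were between -0.02 and 0.02 for the embryonic groups.

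**Figure D4:**
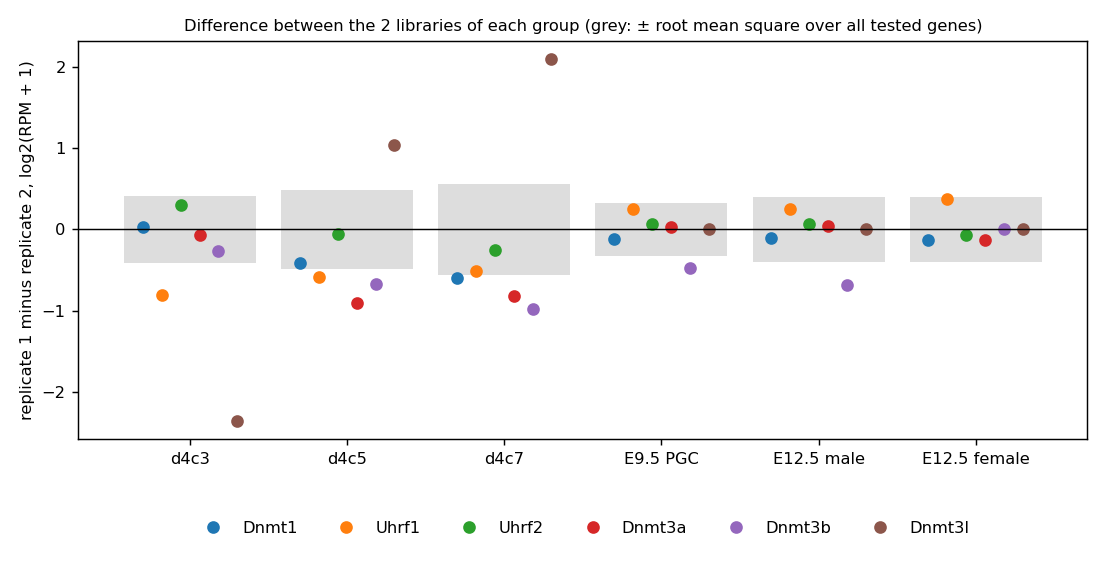
Difference between replicate 1 and replicate 2 in log2(RPM + 1) (vertical axis) for each gene and group (horizontal axis); grey bands give ± the root mean square difference over all tested genes, 0.33 to 0.56. Dnmt3l lies outside the band in all 3 culture groups, below it in d4c3 and above it in d4c5 and d4c7.

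Genes with the pattern most like each of the 6 were sought among 7556 tested genes with a mean of at least 10 RPM, by Pearson r of log2(RPM + 1) over the 12 libraries, which share their group structure. Dnmt3l was closest to Slc20a1, a phosphate transporter gene (r = 0.973), followed by Cyfip1, Sesn1, Polk and Snx10 (r at least 0.960). All 5 were also highest in d4c5 or d4c7, but none was at 0 in the embryo: Slc20a1 had means of 84.2, 125 and 134 RPM in d4c3, d4c5 and d4c7 and of 46.2 to 58.0 RPM in the embryo. Dnmt3b was closest to Acaa1a (r = 0.911), Cecr2, Ei24, Iqgap3 and Cgn. Uhrf1 was closest to Ctxn1 (r = 0.958), with Cox4i1, Vcp, Nol7 and Ssna1 next, and Dnmt1 to Ubap2 (r = 0.955), Rrbp1, Brca2, Rictor and Pogz. Dnmt3a was closest to Usp11 (r = 0.935) and Uhrf2 to Gng12 (r = 0.921). None of the 6 was among the 5 genes closest to another. Between them the highest r over the 12 libraries was 0.79, for Dnmt3b with Dnmt3l, and the lowest was -0.82, for Dnmt3a with Dnmt3l.

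Among the partners of maintenance methylation, 13 genes and all tested, limma called 0 in d4c7 against d4c3 (4 had an unadjusted p under 0.05), where 2.75% of all genes were called, with a median difference of 0.16 beside 0.02 over all genes. Usp7, the deubiquitinase that binds Dnmt1 and Uhrf1, was higher in culture. It had 281 ± 40.9 RPM in d4c3 and 320.0 ± 90.0 RPM in d4c7 against 149 ± 3.36 RPM at E9.5, and it was called higher in both (0.90 and 1.07). Pclaf, a partner of the replication clamp that Dnmt1 uses, was highest at E9.5, with 74.8 ± 2.02 RPM against 17.7 ± 2.10 RPM in d4c3 and 19.8 ± 0.782 RPM in E12.5 males. It was called lower than E9.5 in d4c3, d4c7 and both E12.5 groups (-1.87 to -2.38). In all, 2 of the 13 were higher and 2 lower in d4c3 than at E9.5 (median -0.31, all genes 0.04), and 2 higher and 3 lower in d4c7 (median -0.23), where 23.7% and 31.9% of all genes were called.

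From E9.5 to E12.5 the maintenance partners moved in both directions: 4 of 13 were called higher and 3 lower in males (median 0.16, all genes 0.05), and 5 higher and 1 lower in females (median 0.41, all genes 0.04), where 37.7% and 37.5% of all genes were called. Hells, a chromatin remodeller needed for methylation of repeats, was at 141 ± 7.65 RPM at E9.5 and rose to 258 ± 29.2 RPM (males) and 297 ± 27.7 RPM (females). Ehmt1, an H3K9 methyltransferase of the complex that also methylates Lig1, rose from 19.1 ± 3.65 RPM to 43.9 ± 0.136 RPM and 37.8 ± 1.52 RPM. Dppa3, which encodes Stella and keeps Uhrf1 from chromatin, rose from 2051 ± 53.8 RPM to 4808 ± 53.6 RPM and 2916 ± 72.5 RPM. Dppa3 is also the gene of the reporter used to sort the embryonic cells. Against both E12.5 groups, d4c7 had 2 of 13 higher and 7 lower (median -0.36 against males and -0.44 against females, all genes -0.01 in both), where 36.6% and 38.9% of all genes were called. Those lower included the replicative ligase Lig1 (-0.90 and -1.22), Cdca7l (-1.42 and -1.83), and Dppa3 (-1.69 and -0.97).

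Among 10 tested genes of a list around de novo methylation, not all of them its regulators, 1 was called between d4c7 and d4c3. Kdm2b, which binds unmethylated CpG islands, rose from 60.8 ± 1.36 RPM to 93.7 ± 16.8 RPM (0.60, adjusted p = 0.0387). Prdm14, a germ cell regulator known to hold down de novo methyltransferase genes, was at 111 ± 14.9 RPM in d4c3 and 98.8 ± 10.4 RPM in d4c7, a difference that did not pass. It was called lower at E12.5 than at E9.5 in both sexes (-0.46 and -0.53). Kdm1b, an H3K4 demethylase needed for methylation in oocytes, was at 9.14 ± 0.588 RPM at E9.5 and rose to 40.2 ± 7.39 RPM (males) and 45.0 ± 5.75 RPM (females). Morc1, which silences transposons in male germ cells, fell from 89.0 ± 6.85 RPM to 22.6 ± 7.21 RPM and 48.9 ± 1.59 RPM, and it was 93.0 ± 3.36 RPM in d4c7. By count, 4 were higher and 2 lower in males and 3 higher and 2 lower in females against E9.5 (medians 0.32 and 0.23), where 37.7% and 37.5% of all genes were called. In d4c3 2 were higher than at E9.5, where 23.7% of all genes were called, Prdm14 (0.44) and Prdm1 (0.71), the latter encoding Blimp1, whose reporter sorted the cultured cells.

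**Figure D5:**
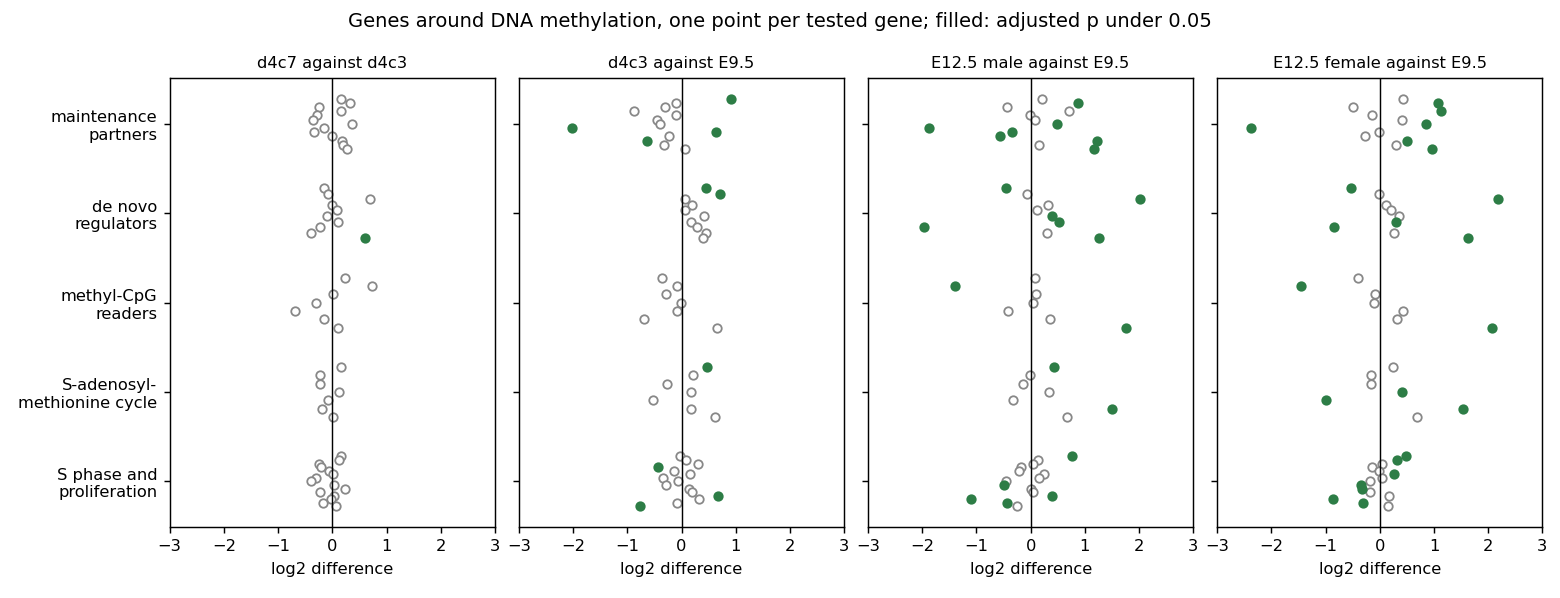
Differences in log2(RPM + 1) (horizontal axis, first group minus second) for each tested gene of 5 lists around DNA methylation (vertical axis), in 4 comparisons; filled points have a limma adjusted p under 0.05. Between d4c7 and d4c3 the only filled point is Kdm2b, while both comparisons of E12.5 with E9.5 have filled points on both sides of 0 in all 5 lists except the S-adenosylmethionine cycle in males, where both filled points are to the right.

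Of 7 tested readers of methylated CpG, limma called 0 between d4c7 and d4c3 (1 had an unadjusted p under 0.05). In both sexes of E12.5 against E9.5 it called 1 higher and 1 lower, where 37.7% (males) and 37.5% (females) of all genes were called: Zbtb38 was at 3.73 ± 0.0690 RPM at E9.5 and rose to 15.0 ± 0.468 RPM (males) and 19.0 ± 4.45 RPM (females), and Mbd2 fell from 14.9 ± 2.32 RPM to 5.48 ± 3.32 RPM and 4.76 ± 0.733 RPM. Mbd2 was at 23.7 ± 0.803 RPM in d4c7 and was called higher there than in either E12.5 group (2.03 and 2.11).

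Of 7 tested genes of the S-adenosylmethionine cycle, which makes the methyl donor, limma called 0 between d4c7 and d4c3 (0 at an unadjusted p under 0.05). Mat2a, which synthesises the donor, was higher than at E9.5 in d4c3 (0.47), d4c7 (0.63) and E12.5 males (0.43), with 183 ± 22.5 RPM at E9.5 and 282 ± 16.5 RPM in d4c7. In d4c7 against E9.5 it was the 1 gene of the list called higher and 2 were called lower, where 31.9% of all genes were called. Ahcy, which clears the product of methylation, was called lower there, at 207 ± 33.0 RPM against 288 ± 1.34 RPM (-0.48). Mtr, the methionine synthase gene, was at 3.94 ± 2.23 RPM at E9.5 and rose to 12.6 ± 4.67 RPM (males) and 12.6 ± 1.06 RPM (females). Of the list, 2 were called higher and 0 lower in males against E9.5, and 2 higher and 1 lower in females. Of all genes, 37.7% and 37.5% were called.

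Genes of S phase and proliferation give the setting for Uhrf1 and Dnmt1, which are both known to peak in replicating cells. The 16 genes summed to between 4429 and 4763 RPM in all 12 libraries, so culture and embryo overlapped. Of the 15 tested, 1 was higher and 2 lower in d4c3 than at E9.5, and 2 higher and 3 lower in d4c7, where 23.7% and 31.9% of all genes were called, with medians of -0.02 and -0.04 beside 0.04 over all genes in both. Mcm5, of the replicative helicase, and E2f1, a regulator of S phase genes, were lower in d4c3 (-0.43 and -0.76), and Cdk1, the mitotic kinase, was higher (0.67). Uhrf1 was at -1.53 in the same comparison. Pclaf, of the maintenance list, was also called lower there, at 17.7 ± 2.10 RPM against 74.8 ± 2.02 RPM. The relation of Uhrf1 to these genes was not tested.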

How the data were processed

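RNA from sorted mouse germ cells was profiled in 12 libraries. Per the labels' protocols, RNA was purified on columns, and amplified cDNA was read by 3′-end sequencing on a SOLiD instrument. The authors deposited 1 table of RPM, reads scaled to reads assigned to genes. Per the submitters' processing notes, cutadapt 1.3, TopHat 1.4.1, Cufflinks 2.2.0 and build mm10 were used, with no role given for each. Between 81.8% and 87.4% of low values were whole multiples of the smallest step (within 0.1 read), so whole reads were not recovered and no count test was run.

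From the table, log2(RPM + 1) was computed for the 10856 genes with at least 5 RPM in at least 2 libraries, and 1 limma model with a mean per group (limma 3.58.1 and R 4.3.3, with a mean-variance trend in eBayes and 6 residual degrees of freedom) was fitted to all 12 libraries, after it was tested on simulated data. The 10 comparisons were adjusted over all genes by Benjamini-Hochberg. The main model used no pairing. For the replicate block, same-numbered libraries were taken as paired where all their deviations correlated above 0.1. This held in culture (r = 0.116 to 0.455, read from the data and not from the labels) but not in the embryo. The replicate block nevertheless had a term within culture and another within the embryo. Alternatives were pseudocounts of 0.5 and 5, no filter, libraries centred on equal medians, the replicate block, a fit of the 4 libraries compared, and each library left out in turn. With a library left out, the single one of its group is assumed to vary like the other groups.

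The genes, lists and rules were chosen with earlier results of these data known, and the reporter genes Dppa3 and Prdm1 stand in 2 lists each. Named list genes were, per comparison, up to 4 called genes with the largest change. The 10 lists held 95 genes, of which 94 had a row; Dnmt3c is not analysed here, and values of 1 other list gene are not reported here. Pclaf was matched through its gene identifier. Positions and promoters are from RefSeq GRCm38.p6, the build of mm10, and exons from GENCODE.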

Additional observations from a re-analysis of the deposited data

How the results depend on the processing

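Of the differences reported for the 6 genes, 500 of the repeated values kept direction and side of the threshold, 42 lost the call, 12 gained it and 15 changed sign. These counts include Dnmt3l against the embryo, whose difference was fixed by the filter. None of the differences that changed sign was a called one. They were Dnmt3a in E12.5 males against E9.5 with medians centred (-0.035), and the following with 1 library left out, given as the lowest and highest value: in d4c5 against d4c3, Dnmt1 (-0.14 to 0.28) and Dnmt3a (-0.073 to 0.83); in d4c7 against d4c5, Dnmt1 (-0.44 to 0.16) and Dnmt3l (-0.13 to 1.96); in d4c7 against d4c3, Dnmt1 (-0.37 to 0.23), Dnmt3a (-0.64 to 0.18) and Uhrf1 (-0.28 to 0.53). In E12.5 males against E9.5 it was Dnmt3a (-0.00012 to 0.040), in females against males Dnmt3b (-0.50 to 0.18) and Uhrf1 (-0.057 to 0.32), in d4c3 against E9.5 Uhrf2 (-0.071 to 0.23), and in d4c7 against E9.5 Dnmt1 (-0.21 to 0.39).

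Calls of single genes moved in some settings. Dnmt3l against the embryo is left out here too, since its passing the filter fixed its difference. With no filter on low values, many more genes at low values were tested. The calls that ended were Dnmt3l over culture (adjusted p = 0.106), Dnmt1 in females against E9.5 (0.0704) and Dnmt3a in d4c3 against E9.5 (0.0763). Dnmt1 also lost its calls in d4c7 against males (0.0811) and females (0.132). With medians centred, Uhrf2 joined Dnmt1 in females against E9.5, and Dnmt3b was called in d4c7 against d4c3 (0.0404). With only the 4 libraries compared, none of the 6 genes was called in d4c7 against d4c3. In females against E9.5, Uhrf1 (adjusted p = 0.0316) and Uhrf2 (0.0135) joined Dnmt1 in that fit. In that fit Uhrf1 was also called in males against E9.5 (0.00924), and Dnmt1 was not called in d4c7 against males (0.0684) or females (0.119). With 1 library left out it ranged from 0 to 2 for d4c7 against d4c3, 0 to 1 for males against E9.5, 0 to 0 for females against E9.5, 0 to 1 for d4c3 against E9.5, 4 to 5 for d4c7 against E9.5, 2 to 4 for d4c7 against males and 3 to 6 for d4c7 against females; the cause was not tested. A pseudocount of 5 gave a call for Dnmt3b in d4c7 against d4c3 (0.0348). The replicate block moved the number of genes called in d4c7 against d4c3 from 298 to 549 over all genes and from 2 to 3 of the 6. It also gave a call for Uhrf1 in males against E9.5 (adjusted p = 0.0329), where the numbers do not pair the libraries, and changed no call of the 6 genes other than those named here and in the report. Depth limits Dnmt3l and Uhrf1 most, at under 20 estimated reads in some culture libraries. It also limits Dnmt3b, at an estimated 14 reads in E9.5 replicate 1.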

Other observations

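Dnd1, an RNA-binding protein gene of early germ cells that is not part of the methylation lists, had its highest culture level in d4c3, as Uhrf2 did, but a higher level in E12.5 females than at E9.5. It was at 150.2 and 128 RPM in d4c3, 86.1 and 84.5 RPM in d4c5 and 49.1 and 62.9 RPM in d4c7, with no overlap between the groups. At E9.5 it was 218 and 190.4 RPM, and in E12.5 females 337 and 349 RPM.

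Spike-in RNAs took up very different shares of the libraries, from 0 to 72.7 RPM in culture through 628 to 1372 RPM at E9.5 to 12107 to 16494 RPM at E12.5. The sums of culture, E9.5 and E12.5 did not overlap. Within d4c7, replicate 1 had 64.8 RPM, while replicate 2, the library with the greatest estimated depth, had 0 RPM. The relation of the sums to the levels of the 6 genes was not tested.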
